A study of Mus musculus with 13 samples.

Results

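The keratins followed here were Krt1, Krt5, Krt6a, Krt8, Krt10, Krt14, Krt15, Krt16, Krt17 and Krt18. They were taken as every probe set annotated to only 1 of these symbols, older synonyms included, which gave 17 probe sets for 10 genes, of 22690 probe sets on each array. A further probe set, annotated to both Krt14 and Krt17, was left out. Total RNA of primary keratinocytes from mice, the cells that build the epidermis, was measured on 13 Affymetrix arrays, which report a fluorescence intensity for each probe set. All the cells, untreated ones too, had been infected with a retrovirus that carries DNp63alpha, an isoform of the epidermal transcription factor p63, joined to an estrogen receptor domain that responds to tamoxifen. There was 1 array at each of 20, 40, 60, 80, 100, 120, 140, 160, 180, 200, 220 and 240 min after tamoxifen, and 1 array of untreated cells, taken as 0 min. Cells without the fusion and a course without tamoxifen were not analysed here. The strain, sex and age of the mice, the promoter of the retrovirus and whether a culture pooled several animals are not given in the sources used here.

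Keratins are the intermediate filament proteins of epithelial cells, and each filament is built from pairs of a type I and a type II chain. Krt5 and Krt14 form the pair of dividing basal keratinocytes, with Krt15 as a further basal type I chain, and p63 is known to act on the Krt5 and Krt14 genes. Krt1 and Krt10 replace them in the suprabasal layers as cells differentiate. Krt6a, Krt16 and Krt17 are made in hair follicles, in wounds and in cultured keratinocytes and are called stress keratins. Krt8 and Krt18 are the pair of simple, single-layered epithelia and of the early embryonic skin, and they are low in adult epidermis.

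The stress keratins Krt6a, Krt16 and Krt17 and the simple-epithelium pair Krt8 and Krt18 were lower at 80 to 240 min (9 arrays) than at 0 to 60 min (4 arrays), and Krt5 was slightly higher. The largest of these differences was that of Krt8, whose 3 probe sets read 0.556 to 0.566 times their first-hour level from 80 min on. In this contrast 10 of the 17 keratin probe sets, from 6 genes, passed the test, 1 of them higher and 9 lower, against a background of 25.1% of all probe sets named to 1 gene. Of all those probe sets 12.4% were called lower and 12.7% higher. No probe set of Krt14, Krt15, Krt1 or Krt10 passed. The test was limma's moderated test on log2(intensity + 16), 2-sided, over 20393 probe sets, with Benjamini-Hochberg adjustment and a threshold of 0.05, and all adjusted p-values of single probe sets below come from such limma fits. The contrast was chosen with earlier results of these arrays known. The arrays of both parts of the course stand in for replicates, since each time had 1 array and no source says which arrays came from separate cultures, so a p-value here sets a difference against array-to-array spread, which may be technical. No source says either whether the arrays up to 60 min and those from 80 min were handled apart, and such a difference cannot be told apart from time after tamoxifen.

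**Figure D1:**
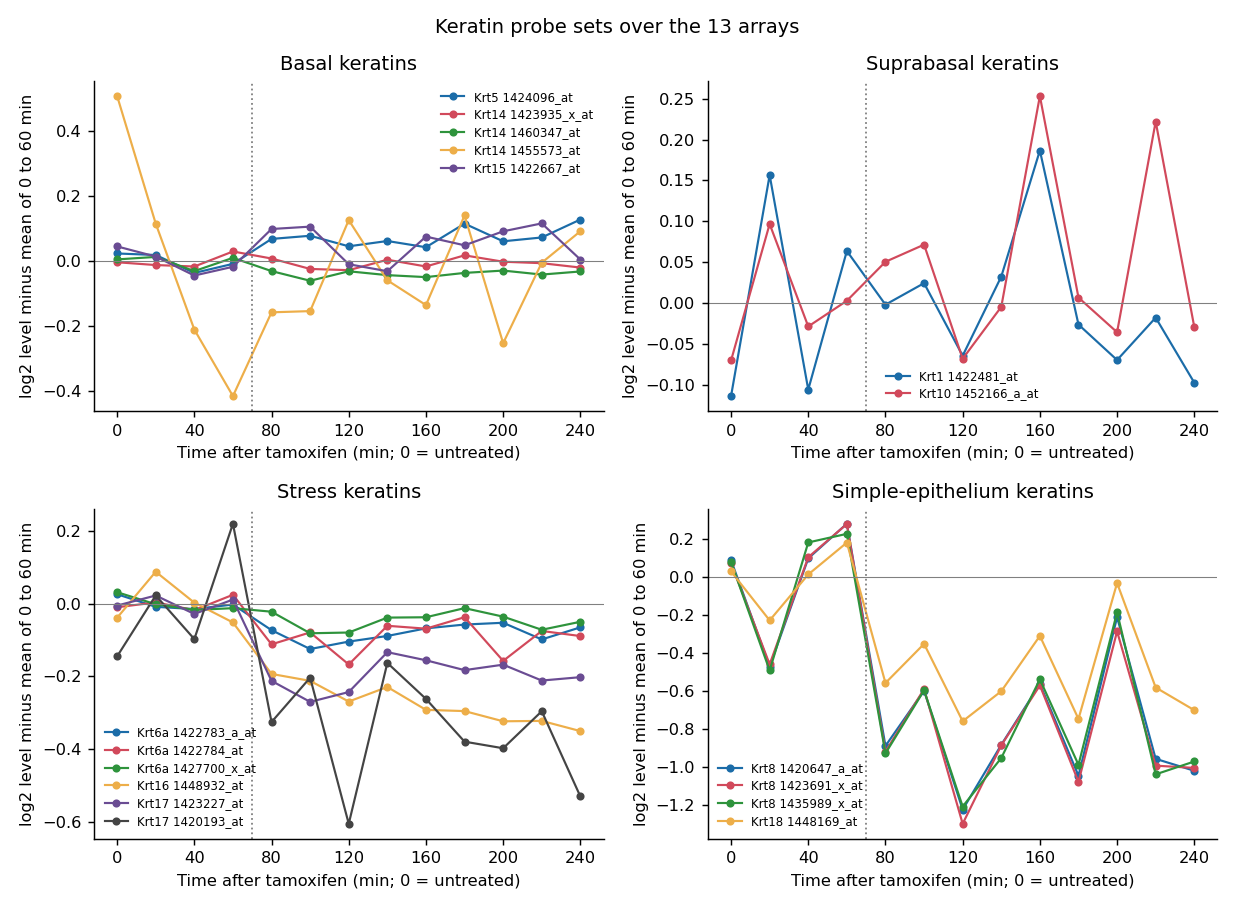
Log2 level, log2(intensity + 16), of each of the 17 keratin probe sets minus its mean over the arrays at 0 to 60 min, plotted against time after tamoxifen in minutes, with 1 array per point and a dotted line between 60 and 80 min. The stress and simple-epithelium keratins lie below 0 from 80 min on. Krt8 and Krt18 dip at 20 min, are highest at 60 min and have a peak among the later arrays at 200 min. The scales of the panels differ.

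**Figure D2:**
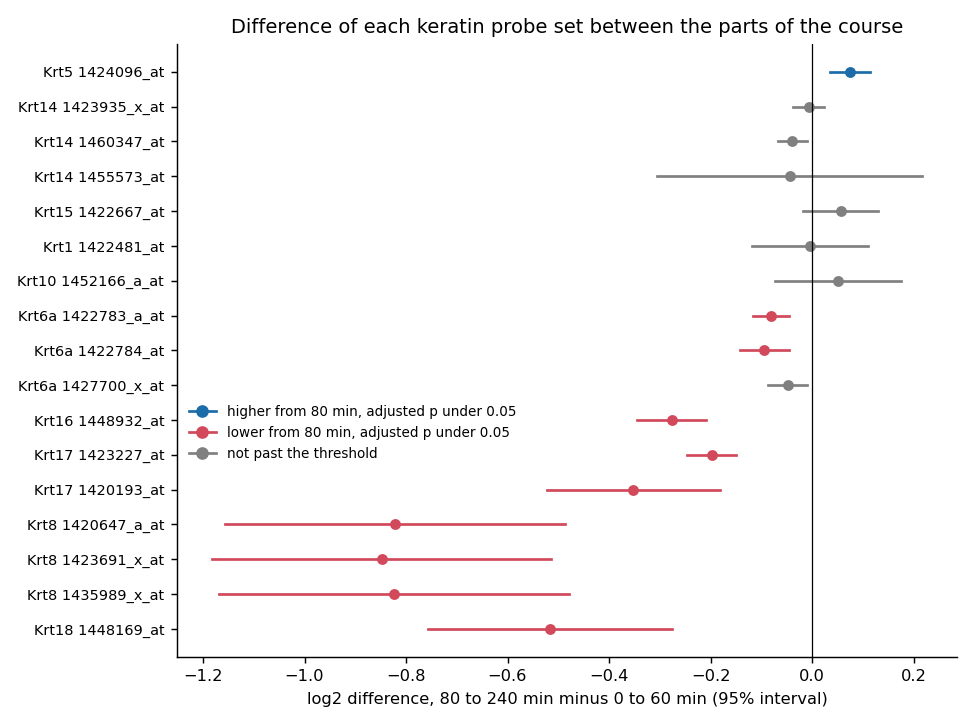
Difference in log2 level of each keratin probe set, 80 to 240 min (9 arrays) minus 0 to 60 min (4 arrays), with its 95% interval from the limma fit; blue marks higher and red lower calls at an adjusted p under 0.05, and grey marks the others. Of the 17 probe sets, 9 lie on the lower side past the threshold and 1, of Krt5, on the higher side.

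A straight line in time over the 13 arrays gave 7 calls among the 17 keratin probe sets, against a background of 22.4%, 1 of them higher with time (Krt5) and 6 lower (Krt16, both probe sets of Krt17 and the 3 of Krt8). In that background 12.2% were higher and 10.2% lower. The 7 calls became 2 without the 40 min array or the 240 min array, 3 without the untreated array, and 4 without the array at 20, 60, 180 or 220 min. A curved course, fitted as a natural spline with 3 degrees of freedom, passed for 2 probe sets, 1 each of Krt16 and Krt17, against a background of 12%. When 180 to 240 min, the late window of 4 arrays, was set against 20 to 80 min, the early window of 4 arrays, 2 probe sets passed, Krt5 higher and Krt16 lower, against a background of 11.7%. Krt16 alone passed on leaving out the array at 20, 40, 60, 100, 140, 160, 180, 220 or 240 min, and 8 probe sets passed without that at 80 min. The early window against the untreated array gave 0 of 17, against a background of 0.0049%. At an unadjusted p under 0.05 that last contrast held 1 probe set, a dim one of Krt14. When the change at 80 min was entered in the straight-line fit as a block, 0 of the 17 slopes passed, with 1 at an unadjusted p under 0.05. The same held within the 9 arrays from 80 min on. Over all 20393 probe sets 0 passed with the block and 3 from 80 min on, so this result is not particular to keratins. These fits could not separate the keratin trends over the whole course from the level change between 60 and 80 min.

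Several keratins read close to the top of the intensity range, which touches how their changes are to be read. The highest probe set of an array read 18969 to 19676 intensity units. The brightest Krt14 probe set read 91.35% to 96.35% of its array's maximum and ranked 4 in mean intensity among all probe sets. The second Krt14 probe set (82.8% to 87.58%, rank 14), the Krt5 probe set (74.92% to 83.51%, rank 23) and the brightest of Krt6a (76.31% to 84.86%, rank 27) followed. The bright Krt17 probe set ranked 64 and that of Krt16 ranked 205. Ranks describe the place in the measured range and do not order the genes by transcript number, since probes differ in how well they bind. Fitted changes were small across this part of the range: the median size over 4 h was 0.037 on the log2 scale among the 44 probe sets named to 1 gene that rank in the top 100, 0.064 for the next ranks to 250, 0.12 for ranks 251 to 1000 and 0.18 for ranks 1001 to 5000. The share called by the straight line was 13.6% in the top 100 and 39.9% at ranks 1001 to 5000. Among the 107 probe sets at or above the mean of the Krt16 probe set, 19.6% passed the straight line and 34.6% the contrast at 80 min. Whether signals near the top were compressed was not tested.

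**Figure D3:**
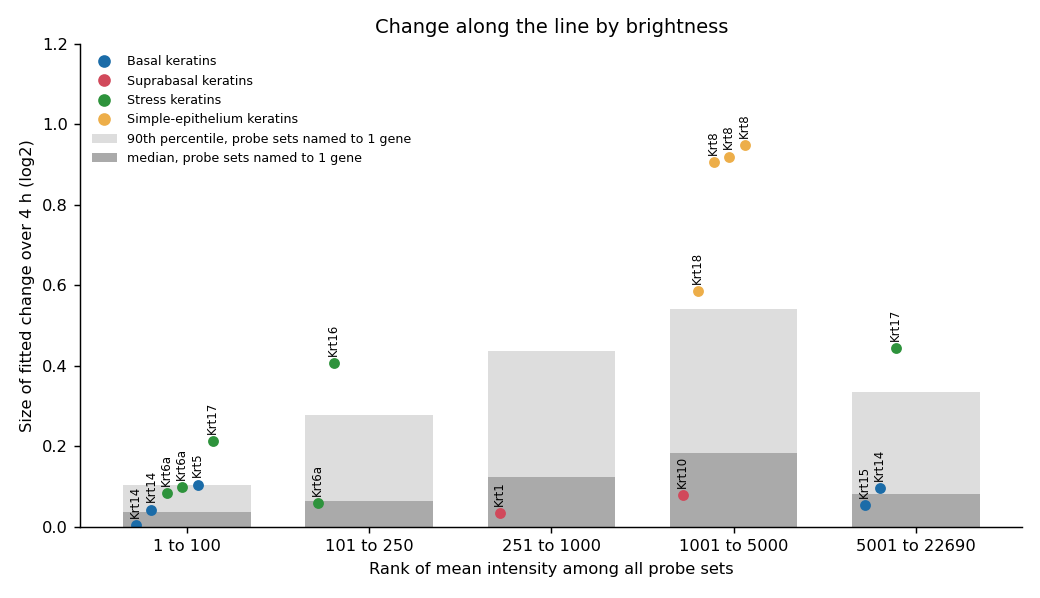
Size of the fitted change over 4 h (log2, without its sign) of the keratin probe sets, as points labelled by gene, beside the median (dark bars) and the 90th percentile (light bars) of probe sets named to 1 gene, by rank of mean intensity. Above the 90th percentile of their rank group lie the bright Krt17 probe set and, narrowly, Krt5 (0.10), Krt16 (0.28), the 4 probe sets of Krt8 and Krt18 (0.54) and the dim Krt17 probe set (0.34), while Krt1 and Krt10 lie below the medians of theirs (0.12 and 0.18).

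Krt5, the basal type II chain, was the only one of the keratins followed here that passed as higher in the later part. Its intensities, in order from untreated to 240 min, were 15173, 15125, 14556, 14841, 15652, 15758, 15407, 15583, 15377, 16171, 15573, 15701 and 16313. All 9 arrays from 80 min on lay above all 4 arrays of the first hour. The mean was 15726 ± 319 at 80 to 240 min and 14924 ± 286 at 0 to 60 min (SD, n = 9 and 4), a 1.05-fold difference (0.075 ± 0.019 SE on the log2 scale, adjusted p = 0.00689). Along the line it rose 1.08-fold over 4 h (0.10 ± 0.030, adjusted p = 0.0195), and the late window was higher than the early one (0.084 ± 0.025, adjusted p = 0.0453). When each array was centred on its own median, neither the contrast at 80 min (adjusted p = 0.0542) nor the line (0.0826) passed, and the line did not pass without the 40 min array (0.0502) or the 240 min array (0.0707).

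Krt14, the partner of Krt5, did not pass in any of these fits. Its brightest probe set read 17874 to 18450 at 80 to 240 min, against 18179, 18071, 18015 and 18602 at 0, 20, 40 and 60 min. The groups overlapped, and the difference of -0.0067 ± 0.014 (log2, adjusted p = 0.792) had a 95% interval of 0.975 to 1.016-fold. The second bright Krt14 probe set read 16019 to 16370 at 80 to 240 min, against 16765, 16854, 16351 and 16821 in the first hour. Its difference of -0.039 ± 0.014 missed the threshold narrowly (adjusted p = 0.05) and passed with dim probe sets left out (0.0134), with a pseudocount of 64 (0.045) and with array weights (0.0225). The dim Krt14 probe set read 290 in untreated cells and 145 to 221 at all later times, with neither a trend (adjusted p = 0.779) nor the course of the bright ones (r = -0.26 and 0.22 over 13 arrays). Within each array the log2 distance of Krt5 over Krt14 grew by 0.027 ± 0.0080 per hour (permutation test of 100000 resamples, p = 0.00474, adjusted over 9 keratin pairs 0.00853). From 80 to 240 min alone the same slope was 0.015 (exact permutation test, adjusted p = 0.379).

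Krt15, a basal type I chain known from hair follicle stem cells, read 129 to 144 at 80 to 240 min, against 127 to 137 in the first hour, below the median of every array (237 to 252). Its difference of 0.056 ± 0.035 did not pass (adjusted p = 0.274). A level this far down the range leaves little room to see a fall.

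The suprabasal pair varied from array to array with no trend. Krt1 read 3078, 3254 and 3753 as the lowest, median and highest of the 9 arrays from 80 min on, against 3043, 3675, 3060 and 3444 in the first hour. Its 2 highest values fell at 20 and 160 min, 1 in each part of the course. The difference was -0.0040 ± 0.054 (log2, adjusted p = 0.971), with a 95% interval of 0.921 to 1.08-fold. Krt10 read 1266, 1334 and 1587 as the lowest, median and highest from 80 min on, against 1264, 1422, 1302 and 1331 in the first hour, a difference of 0.052 ± 0.059 (adjusted p = 0.59). Its highest values were at 160 and 220 min. Along the line, neither Krt1 (adjusted p = 0.829) nor Krt10 (0.598) passed. Across the 13 arrays Krt1 and Krt10 correlated with r = 0.699 (Spearman's rho 0.769, permutation p = 0.00969 and 0.00314, adjusted over 9 pairs 0.0174 and 0.00942). Without the 20 and 160 min arrays, the farthest from the median of Krt1, r was 0.447, so much of this relation rests on these 2 arrays. From 80 min on r was 0.737 (exact permutation test, adjusted p = 0.0941).

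Of the stress keratins, Krt16 showed the most regular course. Krt16, a type I chain induced in wounded and psoriatic epidermis, read 10715, 11701, 11029, 10620, 9625, 9498, 9130, 9387, 8986, 8965, 8791, 8798 and 8628 from untreated to 240 min. Each of the 9 arrays from 80 min on was below each array of the first hour, and the last 5 arrays were the 5 lowest of the course. It averaged 9090 ± 346 at 80 to 240 min and 11016 ± 489 at 0 to 60 min (SD, n = 9 and 4), a ratio of 0.825 (95% interval 0.788 to 0.865, adjusted p = 1.23e-05). Along the line it fell by 0.41 ± 0.049 (SE) in log2 level over 4 h (adjusted p = 0.00015), to 0.754 times its start. The late window, at 8796 ± 137, was lower than the early window, at 10743 ± 869 (SD, n = 4 each, log2 difference -0.28 ± 0.046, adjusted p = 0.00522). The call along the line and the call at 80 min both held with any 1 array left out. Within the arrays from 80 min on, the slope of -0.057 per hour did not pass over all probe sets (adjusted p = 0.147).

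Krt17, a type I chain of hair follicles and wound edges, changed mainly between 60 and 80 min. Its bright probe set read 15185, 15479, 14943, 15360, 13150, 12633, 12872, 13891, 13678, 13423, 13564, 13158 and 13244 from untreated to 240 min. The highest array from 80 min on, at 140 min, was below the lowest of the first hour, at 40 min. The ratio was 0.872 (95% interval 0.843 to 0.902, adjusted p = 1.27e-05). The slope over the whole course passed (a fall of 0.21 ± 0.061 over 4 h, adjusted p = 0.0177), but not without the untreated array or without the 20 min array (adjusted p up to 0.0675). A dim Krt17 probe set read 498, 561, 515, 646, 437, 477, 357, 491, 458, 421, 415, 447 and 377. It followed the bright one with r = 0.79, its groups did not overlap either, and its ratio was 0.784 (adjusted p = 0.0041).

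Krt6a, the type II partner of Krt16 and Krt17, was lower from 80 min by smaller ratios. Its brightest probe set read 14629 to 15382 at 80 to 240 min, against 16244, 15858, 15790 and 15927 in the first hour, with no overlap and a ratio of 0.945 (95% interval 0.922 to 0.968, adjusted p = 0.00171). The second read 12981 to 14207 at 80 to 240 min, against 14479, 14616, 14401 and 14829 in the first hour, again with no overlap (ratio 0.937, adjusted p = 0.00604). The third read 11582 to 12152, against 12109 to 12528, and did not pass (0.968, adjusted p = 0.0662). None of the 3 passed along the line (adjusted p = 0.0877, 0.108 and 0.172). Krt6a and Krt6b are close paralogs and share sequence, so which of them these probes read cannot be told apart here. A probe set named to Krt6b, in the same part of the range as Krt16, also fell, by 0.31 ± 0.053 in log2 level along the line (adjusted p = 0.000779).

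Over all the keratins, 6 of the 17 probe sets (35.3%) had groups that did not overlap between 80 to 240 min and 0 to 60 min, 5 of them lower and 1 higher. Of all 20393 probe sets named to 1 gene, 13.9% had such groups. The 6 were the probe sets of Krt5 and Krt16, 2 of Krt6a and 2 of Krt17.

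By their brightest probe sets, the stress keratins did not keep one ratio to each other. These probe sets lay at different heights of the range. Krt6a read 76.31% to 84.86% of the array maximum, Krt17 66.07% to 79.33% and Krt16 43.85% to 59.8%. Whether compression near the top adds to the differences in slope was not tested. The log2 distance of Krt6a over Krt16 grew by 0.081 ± 0.011 per hour (permutation test, p = 3e-05, adjusted over 9 pairs 0.000135), and did so from 80 to 240 min alone as well (0.069 per hour, exact permutation test, adjusted p = 0.00561). Krt16 lost ground to Krt17 by 0.048 ± 0.011 per hour (adjusted p = 0.00531), and by 0.073 per hour from 80 to 240 min (exact permutation test, adjusted p = 0.00744). With the 2 probe sets of Krt17 averaged, the slope of Krt16 against Krt17 was -0.020 per hour and did not pass (adjusted p = 0.352). Over the whole course the dim Krt17 probe set had a slope of -0.11 per hour. That of Krt16 was -0.10 and that of the bright Krt17 probe set -0.053. Krt14 over Krt16 grew by 0.10 ± 0.013 per hour (p = 1e-05, the smallest these permutations can give, adjusted 9e-05) and by 0.057 per hour from 80 min on (exact permutation test, adjusted p = 0.00134). Krt16 thus moved away from Krt6a, Krt14 and the bright Krt17 probe set also inside the later arrays, where no step lies. Krt6a over Krt17 (0.033 per hour, adjusted p = 0.0228) and Krt5 over Krt6a (0.047 per hour, adjusted p = 0.0081) changed over the whole course, with slopes of -0.0036 and 0.0031 per hour within the later arrays (both adjusted p = 0.834). The first of these calls was lost without the 20 min array (adjusted p = 0.0567).

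Krt8 and Krt18, the simple-epithelium pair, had the largest differences and the widest scatter. The brightest Krt8 probe set, of the type II chain, read 1403, 946, 1413, 1606, 704, 865, 554, 707, 887, 630, 1137, 671 and 641 from untreated to 240 min. Krt18, the type I chain, read 3111, 2599, 3077, 3459, 2064, 2384, 1792, 2002, 2454, 1808, 2981, 2030 and 1867. Both were lowest at 120 min and highest at 60 min, and the 200 min array, high for the later part, read above the 20 min array, low for the first hour, so the groups overlapped. Krt8 averaged 755 ± 179 at 80 to 240 min and 1342 ± 280 at 0 to 60 min (SD, n = 9 and 4), a ratio of 0.566 (95% interval 0.448 to 0.714, adjusted p = 0.0011). Krt18 averaged 2154 ± 388 at 80 to 240 min and 3061 ± 353 at 0 to 60 min, a ratio of 0.699 (95% interval 0.592 to 0.826, adjusted p = 0.00299). In RNA from whole cultures, fewer cells of a type and less RNA per cell cannot be told apart.

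The other Krt8 probe sets gave ratios of 0.556 (adjusted p = 0.000828) and 0.565 (0.00133), and all 3 followed each other with r of 0.99 or more over the 13 arrays. Along the line Krt8 fell by 0.92 ± 0.31 over 4 h (adjusted p = 0.0405), a call lost in 7 of the 13 fits that leave out 1 array (untreated, 40, 60, 140, 180, 220 or 240 min), with an adjusted p of up to 0.142, while the slope of Krt18 did not pass (-0.59 ± 0.21, adjusted p = 0.0528). The contrast at 80 min passed for Krt18 and the 3 Krt8 probe sets in all 13 such fits.

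Krt8 and Krt18 moved up or down together from each array to the next in 12 of 12 steps. Over the 13 arrays their log2 levels correlated with r = 0.987 and rho = 0.978 (permutation p = 1e-05 for both, the smallest these permutations can give, adjusted over 9 pairs 9e-05). Without the 40 and 60 min arrays, the farthest from the median of Krt8, r was 0.983. Within the 9 arrays from 80 min on r was also 0.987 (exact permutation p = 1.93e-05, adjusted 0.000174), so the relation does not rest on the change at 80 min. The swings of Krt8 were wider, with a ratio of highest to lowest intensity of 2.90, against 1.93 for Krt18. The log2 distance of Krt8 to Krt18 changed by -0.084 ± 0.034 per hour (permutation p = 0.0326, adjusted 0.0419). This call held in only 4 of the 13 fits that leave out 1 array, those without 20, 80, 120 or 200 min (adjusted p up to 0.118 in the others). From 80 min on the slope was 0.011 (exact permutation test, adjusted p = 0.834). For comparison, within the arrays from 80 min on r was 0.666 for Krt6a and Krt17, -0.242 for Krt16 and Krt17 and 0.238 for Krt5 and Krt14, and none of these passed by exact permutation tests (adjusted p = 0.155, 0.677 and 0.677). Arrays of a course share its order in time, so they are not fully independent samples.

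**Figure D4:**
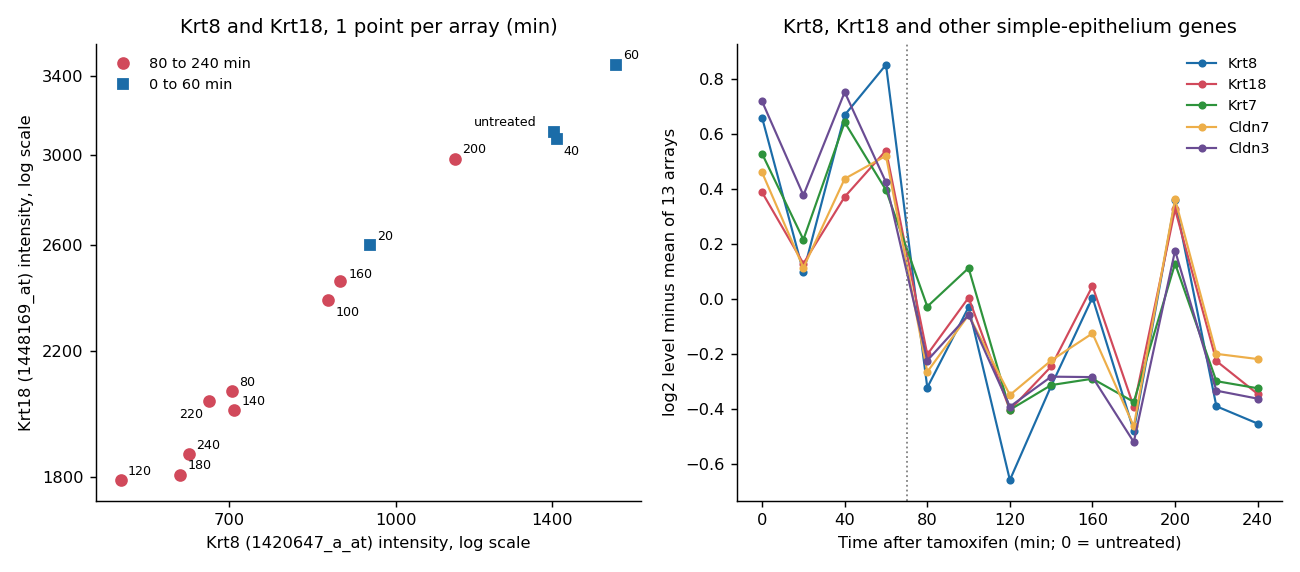
Left, intensity of Krt18 against that of Krt8, both on log scales, with 1 point per array labelled by its time in minutes, for 80 to 240 min (circles) and 0 to 60 min (squares). Right, log2 level of Krt8, Krt18, Krt7, Cldn7 and Cldn3 minus their means over the 13 arrays. The genes share a dip at 20 min, a low at 120 min and a peak among the later arrays at 200 min.

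Krt8 and Krt18 neighbour each other on chromosome 15 with no protein-coding gene between them, and Krt5, which moved the other way, lies on that chromosome too. Their promoter sequences are shown because the pair moved together and Krt5 did not follow. Each window runs from 250 bases before to 50 bases after the annotated gene start in RefSeq, assembly GRCm38.p6, and is written 5′ to 3′ along the gene: Krt8 on the minus strand at chr15:102004293-102004592, Krt18 on the plus strand at chr15:102027966-102028265 and Krt5 on the minus strand at chr15:101712856-101713155. RefSeq windows were matched for 5 of the 10 genes. Those of Krt10 and Krt14 started inside the annotated gene and are not shown. Capitals mark matches, on either strand, to TATAAA (the TATA box), TGANTCA (the AP-1 site), CATG (the core letters of sites of the p53 family, to which p63 belongs) and the 3 longest runs that the Krt8 and Krt18 windows share, CACAGGGA, CACTCAGG and TTAGGTCA.
Krt8: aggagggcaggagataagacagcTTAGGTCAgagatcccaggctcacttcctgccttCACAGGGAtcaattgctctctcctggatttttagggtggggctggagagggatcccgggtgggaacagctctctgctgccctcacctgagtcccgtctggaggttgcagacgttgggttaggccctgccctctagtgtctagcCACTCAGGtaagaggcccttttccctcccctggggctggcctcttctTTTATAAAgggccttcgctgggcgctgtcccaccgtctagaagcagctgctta
Krt18: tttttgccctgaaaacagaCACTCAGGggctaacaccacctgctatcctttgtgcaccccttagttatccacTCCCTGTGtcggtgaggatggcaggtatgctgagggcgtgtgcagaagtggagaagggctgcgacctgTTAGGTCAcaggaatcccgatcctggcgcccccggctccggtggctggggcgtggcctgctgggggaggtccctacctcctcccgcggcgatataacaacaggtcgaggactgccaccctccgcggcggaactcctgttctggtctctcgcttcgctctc
Krt5: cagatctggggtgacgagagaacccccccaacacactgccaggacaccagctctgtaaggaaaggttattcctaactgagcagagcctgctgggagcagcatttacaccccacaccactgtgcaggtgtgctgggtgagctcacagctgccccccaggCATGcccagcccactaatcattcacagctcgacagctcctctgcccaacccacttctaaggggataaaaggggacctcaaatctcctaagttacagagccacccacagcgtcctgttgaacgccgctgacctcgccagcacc
The Krt8 window held TATAAA on both strands, as 2 overlapping matches in 1 capital run, and the other windows shown held none. The first match began at -3 bases from the annotated gene start, and whether it serves as a TATA box was not tested. Of 32851 RefSeq windows of this length 13.6% had a match. TGANTCA was in none of the 3 windows (7.81% of all windows), and CATG was in that of Krt5 alone (61.1%). The shared runs, 8 bases long, were in 2.05%, 1.71% and 0.667% of all windows, CACAGGGA lying in the Krt18 window as its reverse complement. They were picked because both windows hold them, so these shares do not show that the sharing is unusual. How often any 2 windows share runs of this length was not tested. All marked stretches are matches of letters and say nothing of whether a factor binds.

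Genes most like each keratin over the 13 arrays were sought among 7800 other genes by Pearson's r of log2 levels, as a description. For Krt8 they were Cldn7, which encodes a claudin of tight junctions (r = 0.970, and 0.909 from 80 min on), Nfkb2, an NF-kappaB subunit (0.962 and 0.928), and Vti1a (0.940 and 0.847). For Krt18 they were Cldn7 (0.973 and 0.931), Nfkb2 (0.954 and 0.898) and Eif4e2 (0.953 and 0.914). Cldn7 read 861, 674, 847, 898, 515, 597, 485, 530, 569, 447, 804, 540 and 532 from untreated to 240 min, and moved the same way as Krt8 in 12 of 12 steps between neighbouring arrays. For Krt16 the 3 were Foxj3 (0.973), Zfp330 (0.972) and Il1a (0.971), which encodes the cytokine interleukin 1 alpha, with r of 0.765, 0.812 and 0.839 from 80 min on. Krt17 was most like Map7d1 (0.965), Eif6 (0.964) and Mtrr (0.962), Krt6a most like Myadm (0.923), Zfp36l2 (0.920) and Pip5k1a (0.920), and Krt5 most like Crot (0.922), Klhl42 (0.921) and Ccz1 (0.913). The highest values for Krt14 (Ywhaq, 0.742) and Krt1 (Ebna1bp2, 0.715) were lower. Krt10 was closest to Tcp11 (0.833), which also ranked among the 3 of Krt1 (0.681), and Krt15 to Ggact (0.884).

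Other genes of simple epithelia were examined beside Krt8 and Krt18, each by its brightest probe set. Of 7 such genes on the array 3 fell along the line and 0 rose, against a background over 12394 genes of 10.8% lower and 13.1% higher. Krt7, a type II keratin of simple epithelia, fell by 0.86 ± 0.19 in log2 level over 4 h (adjusted p = 0.00371), Cldn3, a claudin, by 1.02 ± 0.22 (0.00365) and Epcam, an adhesion molecule, by 0.37 (0.0113). Krt7 read 683, 548, 741, 622, 460, 509, 351, 375, 381, 359, 515, 379 and 372 from untreated to 240 min. It shared the dip at 20 min and the peak among the later arrays at 200 min. From 80 min on the r with Krt8 was 0.771 for Krt7, 0.880 for Cldn3, 0.270 for Epcam and -0.017 for Cdh1, so only some of the list shared the swings. It was 0.875 for Krt19 and 0.818 for Muc1, but these read only 121 to 159 and 131 to 170, below the median of every array. Over all 13 arrays the r of Krt19 and Muc1 with Krt8 was 0.308 and 0.278. The summed intensity of the 7 genes was 10150 to 11881 in the late window, against 11601 to 14221 in the early window and 14348 in untreated cells. Their part in the Krt8 and Krt18 result was not tested.

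Of 43 further keratin genes 29 were on the array, 17 of them below the 40th percentile of intensity. Along the line 6 of the 29 fell and 0 rose, against a background over genes of 10.8% lower and 13.1% higher. Besides Krt6b and Krt7, Krt80, an epithelial keratin, fell by 0.64 in log2 level (adjusted p = 0.000846) and Krt79, of the hair canal, by 0.55 (0.0125). In the contrast at 80 min 7 were lower and 1 higher, against a background over genes of 13% lower and 13.4% higher. The 1 higher was Krt77, of sweat ducts and suprabasal epidermis, named after its values were seen. It read 959 to 1574 at 80 to 240 min, against 578 to 707 in the first hour, with no overlap (log2 difference 0.87, adjusted p = 3.15e-05).

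Genes that act with keratin filaments, and some others listed with them, moved in part. The list held genes of desmosomes, hemidesmosomes and filament binding, the other intermediate filament genes Nes and Vim, and Krtcap2 and Krtcap3. Of its 16 genes on the array 4 fell along the line and 0 rose, against a background over genes of 10.8% lower and 13.1% higher. They were Jup, the desmosomal plakoglobin (a fall of 0.14 in log2 level, adjusted p = 0.0367), Flg, the filament-aggregating filaggrin (0.23, 0.0426), Nes, the intermediate filament nestin (0.25, 0.0449), and Eppk1, the linker epiplakin (0.49, 0.0213). Of 13 other genes of the suprabasal programme 11 fell and 0 rose, against the same background, while Krt1 and Krt10 did not pass. That background includes dim genes. Of these 13 genes 1 was below the 40th percentile of intensity, and of the 16 above 0. With dim genes left out, 1313 of 7436 genes fell along the line and 1657 rose. The fitted line of Rptn, the envelope protein repetin, ended at 0.328 times its start (adjusted p = 0.00015), that of Scel, sciellin, at 0.415 times (0.000142), that of Cdsn, corneodesmosin, at 0.558 times (0.000177) and that of Lce1a1, a late envelope protein, at 0.604 times (0.00206). Rptn read 691 ± 222 in the late window and 1507 ± 243 in the early window (SD, n = 4 each). These lists were chosen with earlier results of these arrays known, and whether their shares differ from those of other genes was not tested.

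Of 19 genes for transcription factors known to act on keratin genes, 10 fell along the line and 0 rose. The background over genes was 10.8% lower and 13.1% higher. That background includes dim genes, while none of the 19 was below the 40th percentile of intensity. With dim genes left out, 1313 of 7436 genes fell and 1657 rose. The lists of this paragraph were chosen with earlier results of these arrays known. Whether their shares differ from those of other genes was not tested. Jun, an AP-1 subunit, ended the fitted line at 0.499 times its start (adjusted p = 0.00039). On the log2 scale Fosl1, another AP-1 subunit, fell by 0.81 (adjusted p = 0.00361), Cebpb, a differentiation factor, by 0.54 (0.000744) and Ovol1, a zinc finger factor of epidermal differentiation, by 0.42 (0.00334). Of 10 other basal keratinocyte genes 0 passed along the line in the limma fit, with 4 at an unadjusted p under 0.05. In the contrast at 80 min 4 of these 10 were higher and 1 lower, against a background over genes of 13.4% higher and 13% lower. Those called were Trp63 (log2 difference 0.26, adjusted p = 0.000306), Itga6 (0.21, 0.00387), Lamb3 (0.19, 0.0149), Col17a1 (0.13, 0.0486) and, lower, Sfn (-0.078, 0.0388), named after their values were seen. The integrin, laminin and collagen among them anchor basal cells to the basement membrane, as Krt5 and Krt14 filaments do through hemidesmosomes. Other integrin and laminin genes of the list did not pass in that contrast: Itgb4 (0.065, adjusted p = 0.572), Lama3 (0.15, 0.152) and Itga3 (-0.058, 0.332). All the cells carried DNp63alpha from the retrovirus. Whether the Trp63 probe set also reads RNA of that fusion was not tested, so its rise cannot be assigned to the cells' own gene.

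Krt5 and Krt14, the defining markers of the labelled cell type, read near the top of the range on every array. Of 8 markers of Merkel cells, which also carry Krt8 and Krt18, 7 were below the 40th percentile, and Krt20 read 92 to 105 on all arrays. Their summed intensity was 992 to 1102 in the late window, against 1027 to 1096 in the early window, and 0 of 8 passed along the line, with 0 at an unadjusted p under 0.05. Among markers of other cells, 1 of 8 for melanocytes fell (Mitf, by 0.35 in log2 level, adjusted p = 0.0119) and 1 of 8 for immune cells fell (Cd68, 0.55, 0.00151). Along the same line 1 of 9 for fibroblasts rose (Fbln1, 1.17-fold, 0.00581) and 1 of 8 for endothelium and muscle rose (Acta2, 1.17-fold, 0.025). The background over genes was 10.8% lower and 13.1% higher. Summed intensities in the late and early windows were 6689 to 7062 and 6615 to 7633 for melanocytes, 1509 to 1729 and 1600 to 1811 for immune cells, 1430 to 1556 and 1389 to 1493 for fibroblasts, and 4353 to 4927 and 4006 to 4141 for endothelium and muscle. Their part in the keratin results was not tested.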

How the data were processed

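Per the labels, Trizol was used for the RNA and biotin for the cRNA. The table that the authors deposited holds linear intensities of 22690 probe sets on 13 arrays, made with software not named in the sources used here. Medians of the arrays were 237 to 252 and their upper quartiles 643 to 660, which shows a scaling before deposit, and changes are relative to the bulk of the transcripts. The number of arrays limits the precision.

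Names came from the platform table, in which 20393 probe sets had 1 gene, 691 several and 1606 none, and 20364 symbols were updated by Entrez identifier with a RefSeq table of GRCm38.p6, used for names and for neighbours. The intensities were used as log2(intensity + 16) without further normalization, so that folds of dim probe sets are understated. Fits were made with limma 3.58.1 under R 4.3.3 (eBayes with an intensity trend, 2-sided, Benjamini-Hochberg over the 20393 probe sets, threshold 0.05), with no filter on dim probe sets. The fits were time as a straight line, a spline, a window factor, and 80 to 240 min against 0 to 60 min. The window fit treats change inside a window as spread and takes the lone untreated array to vary like the others. Slopes of log2 differences between 9 pairs of keratins, each gene by its brightest probe set, were tested by permutation (100000 resamples, or exact for 9 arrays). The steps were tested on simulated data. The rule for naming took all keratin probe sets, up to 4 genes of each list with the largest slope past the threshold (the 2 brightest genes where none passed), and the 3 genes most like each keratin. Unnamed, RIKEN and predicted transcripts were skipped. Not every gene that the rule gives is printed: Perp, Chga and Sst, for example, are left out. Some genes outside the rule are marked as such. Krt19, Krt20, Muc1, Cdh1, Itgb4, Itga3 and Lama3 are also outside it and carry no mark. The members, lists and contrasts were chosen with earlier results of these data known. Alternatives tried were other pseudocounts, normalizations, filters, probe set rules, moderation, array weights, parts of the course and arrays left out. The alternatives without the 20 and 200 min arrays, and those for the difference at 80 min of single probe sets, were chosen after seeing the data.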

Additional observations from a re-analysis of the deposited data

Results flagged for a closer look

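Within windows of 4 arrays and within the 9 arrays from 80 min on, 85 groups of values of the 17 keratin probe sets were examined for a single array far from the others, and 5 stood out. Chance alone would mark about 1 in 20 such groups, so 5 of 85 (5.88%) is near that share. The 3 probe sets of Krt8 stood out on the same array of the late window, at 200 min, where they read 1137, 1013 and 1001, against 671, 614 and 573 on the nearest other array of the window. Krt18 was also highest there in the late window (2981). The 3 Krt8 probe sets target 1 transcript and are not independent. Krt10 read 1552 at 220 min in the late window, against 1334 on the nearest other array, and Krt1 read 3753 at 160 min among the arrays from 80 min on, against 3370 on the nearest.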

How the results depend on the processing

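No paired analysis was possible because each time had 1 array and the labels give no replicate numbers. Of 382 values of single keratin probe sets under alternatives other than leaving out 1 array, 322 kept direction and side of the threshold. A further 14 newly passed, and 14 kept their sign but no longer passed. The other 32 changed sign. Among these 32 were slopes of Krt8 and of the bright Krt17 probe set that were called in the main fit and no longer passed either. The 7 keratin calls along the line became 4 with probe sets averaged per gene, 4 with robust moderation, and 0 with the step as a block or from 80 min on, and all 4571 calls became 2995 with averaging, 2970 with the brightest probe set per gene, 0 with the block and 3 from 80 min on. The 2 curved calls became 1 with medians centred or with averaging. The 2 late against early calls became 4 without dim probe sets, 9 with array weights, and 1 with robust moderation, without cross-hybridising probe sets, without the 200 and 220 min arrays or without the 20 and 200 min arrays. The 10 calls at 80 min became 6, over fewer probe sets, with the brightest per gene or averaging. With 1 array left out, calls ranged from 2 to 8 along the line (3114 to 4809 over all probe sets), 1 to 3 for the curve, 1 to 8 for late against early, and 10 to 11 at 80 min. Early against untreated gave 0 calls in the 12 such fits that keep the untreated array, and no value without it. Pair slopes per hour with 1 array left out ranged from -0.10 to -0.069 for Krt8 minus Krt18 and 0.027 to 0.036 for Krt6a minus Krt17; averaging gave -0.085 (adjusted p = 0.0562) and, for Krt16 minus Krt17, -0.020. From 80 min on the pair slopes were 0.015 for Krt5 minus Krt14, 0.011 for Krt8 minus Krt18, -0.0036 for Krt6a minus Krt17 and 0.0031 for Krt5 minus Krt6a. Slopes of changed sign with the step as a block were 0.0025 and 0.0023 for Krt14, -0.0086 for Krt15, 0.0092 and 0.0087 for Krt6a, 0.015 for Krt17, 0.039, 0.040 and 0.050 for Krt8 and 0.018 for Krt18. From 80 min on they were 0.00037, 0.0032 and 0.044 for Krt14, -0.0032 for Krt15, 0.012, 0.0073 and 0.0016 for Krt6a, 0.016 for Krt17, 0.013, 0.014 and 0.026 for Krt8 and 0.0024 for Krt18. None of these slopes passed in those 2 settings. In the main fit those of Krt8 and Krt17 had been called as falls, and the others had not been called. Small uncalled values also turned: for Krt14 slopes of 0.0013 under quantile normalization, 0.00058 with array weights and 0.0033 without the 20 and 200 min arrays (difference at 80 min 0.020), and for Krt1 slopes of 0.0029 with array weights and 0.012 without those 2 arrays, with differences at 80 min of 0.0067, 0.0073 and 0.056 in the same 3 settings and 0.0075 without the 200 and 220 min arrays. With 1 array left out, uncalled values of Krt1 ranged from -0.042 to 0.048 at 80 min and from -0.026 to 0.0068 per hour, and those of Krt14 from -0.012 to 0.0033 and from -0.0025 to 0.00082 (brightest probe set) and from -0.18 to 0.13 and from -0.047 to 0.043 (dim probe set). Beyond the changes shown by these settings' own construction, the cause was not tested.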
